A study of Mus musculus with 28 samples.

Results

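Overnight leptomycin B was compared with no treatment in 2 tagged clones of transformed mouse embryonic fibroblasts (MEFs), clones 12 and 14, and the 4 libraries concerned were chosen by their titles from the 28 of the series. The cells are of the strain C57BL/6x129Sv and were transformed with RAS and DNP53, which by its name is a dominant-negative p53. The treated arm received leptomycin B at 20 ng/mL in the evening and was harvested the next morning, and the untreated arm was seeded and harvested alongside. No vehicle is named for the untreated cells. Both arms carry Ctag-Cyclin D1, a tagged form of cyclin D1, and each tagged line is a single clone. Each clone gave 1 library per arm, so the comparison rests on 2 pairs. The titles add "n=4", whose meaning is not stated. The other libraries of the tagged clones received small interfering RNAs (siRNAs), 6 per clone, and served here to estimate the spread between libraries and as a second level of reference.

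Leptomycin B is a bacterial product that binds covalently to XPO1 (exportin 1, also called CRM1) and blocks its cargo groove. XPO1 carries proteins with a leucine-rich export signal, ribosomal subunits and some RNAs out of the nucleus in a complex with RAN bound to GTP, while most messenger RNAs leave by another carrier, the NXF1 and NXT1 pair. Transcription factors and kinases that shuttle, such as FOXO proteins, TFEB and MondoA, are held in the nucleus when XPO1 is blocked. The libraries measure messenger RNA and not the place of any protein.

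The 4 libraries held 38207601 and 66658019 counts in leptomycin B-treated clones 12 and 14, and 61223070 and 56142700 counts in the untreated clones. Across the series the totals lay between 26558256 and 81512769. Vim, the fibroblast filament vimentin, was at 4257 and 4958 CPM (counts scaled to the size of the library) in treated clones 12 and 14, and at 4175 and 4201 CPM in untreated ones. Clone 14 lacked several fibroblast markers in both arms. Thy1 had no counts there, and Col1a1, a chain of type I collagen, was at 0.967 CPM with leptomycin B and 0.292 CPM without, while the simple-epithelium keratin Krt18 was at 1137 CPM with leptomycin B and 929 CPM without. Summed over 10 fibroblast markers, the level was 12826 and 9245 CPM in treated clones 12 and 14, against 11072 and 7462 CPM in untreated ones. The clones thus differ in identity markers, and levels below are given per clone. In bulk RNA, fewer cells of a kind and less RNA per cell cannot be told apart.

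Leptomycin B changed 1508 of the 15099 genes tested, or 9.99%, at an adjusted p under 0.05 (edgeR's quasi-likelihood test with clone as a block, Benjamini-Hochberg adjustment over all genes). Of these, 648 rose (4.29%) and 860 fell (5.70%). A change of at least 2-fold was called for 355 genes (2.35%), of which 190 rose (1.26%) and 165 fell (1.09%). The median log2 fold change was 0.03 over all genes tested, 0.73 over the genes that rose and -0.70 over those that fell. The typical called change was therefore under 2-fold. The size factors centre the distribution near 0, so its middle is set by the scaling (0.07 with upper-quartile factors, which called 811 genes higher and 739 lower). An unadjusted p under 0.05 was found for 3734 genes. Of the 1508 calls, 1460 fell on the 11491 genes at a mean of at least 1 CPM, so the share called was higher there than over all genes. The shares of all genes set beside the lists below include genes under 1 CPM, of which most lists hold few. They are thus a low mark for such lists.

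The clones moved in the same direction for 1497 of the 1508 called genes and in opposite directions for 11. The call itself favours genes on which the clones agree, so the share over all genes is the plainer figure. It was 72.0% of all genes tested and 79.4% of the 11491 genes at a mean of at least 1 CPM. Over the latter set, Pearson's r between the log2 fold changes of the clones was 0.722 and Spearman's rho was 0.738, across genes, which are not independent replicates. The clones shared no library. Clone 12 spread more widely, with an SD of 0.51 across genes on the log2 scale against 0.45 in clone 14, and 620 genes moved at least 2-fold in clone 12 against 455 in clone 14. Of these, 213 did so in both clones in the same direction, and 1 in opposite directions. A test of the difference between the clones called no gene (0 of 15099 with edgeR, 231 at an unadjusted p under 0.05, lowest adjusted p 1). On simulated data that test recovered none of 100 genes given a difference of 2 on the log2 scale, so it could not have found differences of that size.

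**Figure D1:**
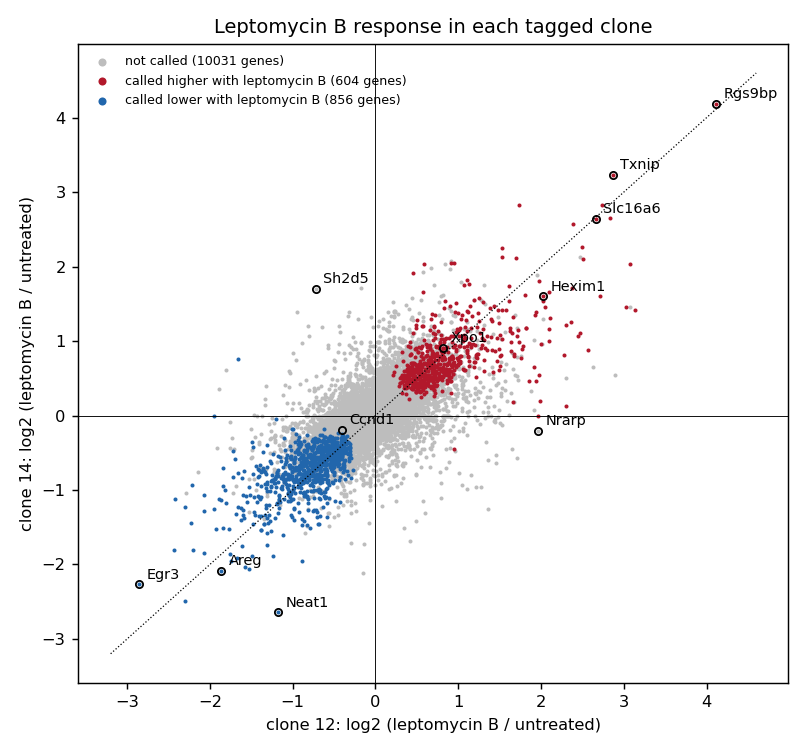
Log2 fold change of leptomycin B over untreated in clone 12 (x axis) against clone 14 (y axis) for genes at a mean of at least 1 CPM; colours mark genes called higher, called lower or not called. The called genes lie along the diagonal, and Pearson's r over all genes plotted is 0.722.

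The calls depend on both pairs and on the block. Without the clone block 74 genes were called, 18 higher and 56 lower. When any 1 of the 4 libraries is left out, 1 arm is left with 1 library. The clone levels are then still estimated from the remaining libraries, the siRNA ones included. The call held in all 4 such fits for 309 genes, 87 higher and 222 lower. Below, a gene named as having risen or fallen without further remark is among those 309. For the others the libraries without which the call was lost are named, in most cases with the adjusted p. Counts, shares and medians of sets of genes cover all calls, also those that were lost in such a fit. The siRNA libraries give a further reading. The leptomycin B library was the highest of the 8 libraries of its clone in both clones for 340 of the 648 genes that rose and the lowest for 478 of the 860 that fell. Over all genes tested, 1302 (8.62%) had the treated library highest in both clones and 1075 (7.12%) had it lowest. The other called genes thus had at least 1 siRNA library at or beyond the treated level.

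Xpo1, the target of the drug, rose in both clones. Its level was 1238 and 1193 CPM in treated clones 12 and 14, against 701 and 635 CPM in untreated ones. The treated libraries stood apart from the untreated ones and from all siRNA libraries of their clones, which lay between 349 and 625 CPM in clone 12 and between 418 and 514 CPM in clone 14. The log2 fold change was 0.87 (SE 0.15, edgeR adjusted p = 0.00135), a 1.82-fold rise, and the call held without the block (adjusted p = 0.035). Xpo1 (NCBI gene 103573) spans chr11:23255909-23297597 of GRCm38.p6, and its promoter is printed because it is the gene whose product the drug binds. The window chr11:23255791-23256090 on the plus strand, from RefSeq, holds the NF-Y box CCAAT at 2 places, in capitals.
Xpo1: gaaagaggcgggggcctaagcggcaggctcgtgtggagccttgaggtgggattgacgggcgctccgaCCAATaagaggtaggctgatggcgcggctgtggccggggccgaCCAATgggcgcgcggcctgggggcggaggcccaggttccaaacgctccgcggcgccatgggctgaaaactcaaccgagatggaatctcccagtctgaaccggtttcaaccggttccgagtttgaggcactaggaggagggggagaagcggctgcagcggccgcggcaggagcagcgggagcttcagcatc
The box CCAAT, read on both strands, stands in 38.9% of the 11794 promoters of tested genes, so its presence is common.

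Of the 7 exportins tested, Xpo1 was the single one called, and the other 6 had negative log2 fold changes. For none of these 6 did a treated library lie below the siRNA libraries of its clone. Xpo6 lay above them, at 76.7 and 84.2 CPM in treated clones 12 and 14, with siRNA libraries up to 71.1 and 72.5 CPM. Xpo5, which exports microRNA precursors, was at 115 and 137 CPM in treated clones 12 and 14, against 217 and 214 CPM in untreated ones, but was not called (log2 fold change -0.77, edgeR adjusted p = 0.0623). Xpot, which exports transfer RNA, and Cse1l, which returns importin alpha, had log2 fold changes of -0.38 and -0.31 and were not called. Of the 9 genes of the RAN cycle, Rcc1, the exchange factor that loads RAN with GTP in the nucleus, was called lower (-0.45, edgeR adjusted p = 0.033), and lost the call without any 1 of the 4 libraries (adjusted p between 0.059 and 0.245). Ran itself was not called (0.37, adjusted p = 0.225).

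Among the import carriers, 3 of 16 were called lower and none higher (median log2 fold change -0.20), against 5.70% and 4.29% of all genes. Kpna4, an importin alpha, was at 135 and 98.9 CPM in treated clones 12 and 14, against 214 and 198 CPM in untreated ones. The arms did not overlap (-0.83, edgeR adjusted p = 0.000676). Kpna2, the importin alpha of proliferating cells, was called lower at -0.93, a call lost without the treated library of clone 14 or the untreated library of clone 12 (adjusted p between 0.0783 and 0.122). Ipo13 was called lower at -0.42 and lost the call without any 1 of the 4 (adjusted p up to 0.184). Of 26 nuclear pore genes, 22 were negative and the median was -0.19. In that list 3 were called lower and 1 higher, against 5.70% and 4.29% of all genes. Those calls were Nup153 (-0.67), Nup210 (-1.24) and Nup35 (-0.51) lower and Nup88 (0.36) higher, of which Nup35 lost its call without the treated library of clone 14 or the untreated one of clone 12 and the other 3 without any 1 of the 4 (adjusted p up to 0.404). Nup210 stood at 0.041 against the siRNA libraries, a control added after the data were seen.

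Of 14 adaptors and cofactors of XPO1 cargo, 5 were called lower and none higher, against 5.70% and 4.29% of all genes. Nmd3, the adaptor that links the large ribosomal subunit to XPO1, was at 75.1 and 67.5 CPM in treated clones 12 and 14, against 134 and 115 CPM in untreated ones (log2 fold change -0.80, SE 0.11, edgeR adjusted p = 0.000194). Eif4e, the cap-binding protein that takes a subset of messages out through XPO1, fell by 0.64 on the log2 scale, and Ncbp1, the large subunit of the nuclear cap-binding complex, fell by 0.70. The calls of Nmd3 and Eif4e held without the block. Elavl1 (HuR), an AU-rich element binding protein, was called lower at -0.56 and lost the call without the treated library of clone 14 or either untreated library (edgeR adjusted p between 0.0571 and 0.103). Ltv1, a small-subunit export factor, was called at -0.34 and lost it without any 1 of the 4 (adjusted p up to 0.285). Of 16 genes of the NXF1 and TREX route, 1 was called, Nxt2, a partner of NXF1 (0.82), which lost the call without the treated library of clone 12 or either untreated library (adjusted p up to 0.124). The median of that list was 0.01, and Nxf1 itself was at 168 and 135 CPM in treated clones 12 and 14, against 187 and 158 CPM in untreated ones, and was not called.

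**Figure D2:**
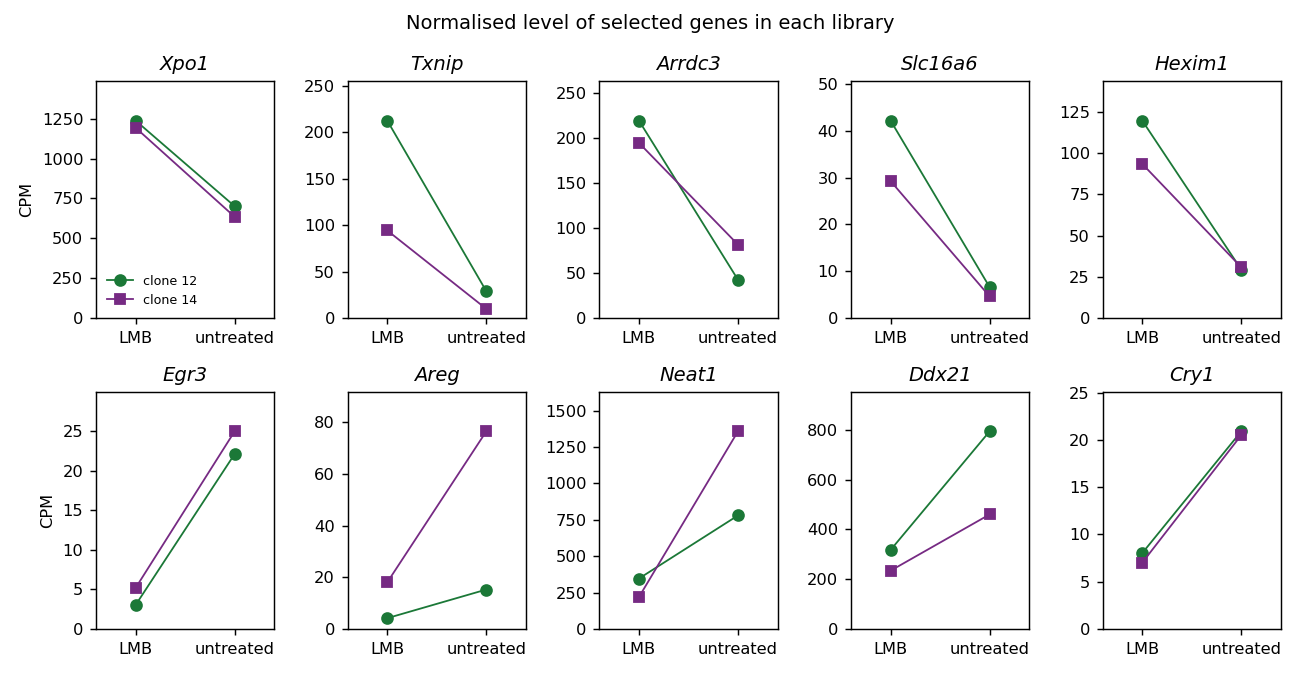
Normalised CPM (y axis, from 0) of 10 genes in each library of clones 12 and 14, with leptomycin B (LMB) left and untreated right and a line joining the libraries of a clone. Xpo1, Txnip, Arrdc3, Slc16a6 and Hexim1 were higher and Egr3, Areg, Neat1, Ddx21 and Cry1 lower with leptomycin B in both clones.

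Ccnd1, the message of cyclin D1, was at 760 and 1286 CPM in treated clones 12 and 14, against 1003 and 1469 CPM in untreated ones. It was lower in both pairs, but the clones overlapped across arms and it was not called (log2 fold change -0.27, SE 0.23, edgeR adjusted p = 0.506). Reads of the tagged copy and of any other copy are not separated in these counts. Of 15 D cyclins and G1 regulators, 2 were called higher and 1 lower, against 4.29% and 5.70% of all genes. Cdkn1b, the CDK inhibitor p27, was at 84.5 and 92.9 CPM in treated clones 12 and 14, against 50.8 and 53.1 CPM in untreated ones (0.77, edgeR adjusted p = 0.00591), and lost the call without either untreated library (adjusted p = 0.0536 and 0.0623). The pocket protein genes went opposite ways, Rbl2 at 0.57 and Rbl1 at -0.55. Rbl1 lost its call without any 1 of the 4 libraries (adjusted p up to 0.133) and stood at 0.25 against the siRNA libraries, and Rbl2 without any but the untreated library of clone 14 (adjusted p up to 0.307). Cdkn1a, the p53-induced inhibitor p21, was not called (-0.22), nor was Cdk4 (0.40, adjusted p = 0.0611).

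Cell-cycle lists changed little. Among 35 replication and E2F target genes, 3 were called lower and 1 higher, with a median of -0.03, and among 31 mitotic genes 1 was called higher, with a median of 0.07. Both shares are near the 9.99% of all genes or below it. Ccne1, cyclin E1, fell to 16.9 and 18.5 CPM in treated clones 12 and 14, against 26.0 and 37.6 CPM in untreated ones (-0.82, SE 0.15, edgeR adjusted p = 0.00177). Ccne2 (-0.50) was called and lost the call without any 1 of the 4 libraries (adjusted p up to 0.209). E2f2 (-0.96) lost it without the treated library of clone 14 or the untreated one of clone 12 (adjusted p up to 0.311). The histone message binder Slbp (0.53) lost it without any but the untreated library of clone 12 (adjusted p up to 0.186), and the mitotic kinesin Kif2c (0.58) without the treated library of clone 12 or the untreated one of clone 14 (adjusted p up to 0.292).

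Txnip had the second largest rise among called genes of at least 1 CPM. TXNIP binds thioredoxin and restrains glucose uptake, and its gene is the best known target of MondoA, a glucose-sensing factor that shuttles through XPO1. Its level was 212 and 94.3 CPM in treated clones 12 and 14, against 29.0 and 9.98 CPM in untreated ones. Each treated library lay above every other library of its clone, the siRNA libraries reaching 50.1 and 12.5 CPM. The log2 fold change was 3.09 (SE 0.24, edgeR adjusted p = 2.6e-06), an 8.50-fold rise. Of the 6 MondoA targets and partners tested, 3 were called higher and none lower, against 4.29% and 5.70% of all genes. Arrdc3, an arrestin-domain protein that brings membrane receptors to degradation, was at 219 and 195 CPM in treated clones 12 and 14, against 42.6 and 81.6 CPM in untreated ones (1.96, SE 0.33, adjusted p = 0.00112). Its call was lost when the 4 libraries were fitted alone (adjusted p = 0.246). Arrdc4, the close relative of Txnip, was at 9.73 and 1.41 CPM against 3.04 and 0.533 CPM (1.56), and lost the call without the treated library of clone 12 or either untreated library (adjusted p between 0.0592 and 0.116). The siRNA libraries reached 9.75 CPM in clone 12 and 2.16 CPM in clone 14 for Arrdc4, above its treated libraries. Mlxip, which encodes MondoA, was not called (-0.63, adjusted p = 0.11).

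The Txnip and Arrdc4 promoters are shown because these genes share an upstream regulator in the literature and were both called higher here. Both windows are RefSeq promoters of GRCm38.p6, chr3:96557707-96558006 on the plus strand for Txnip and chr7:68749189-68749488 on the minus strand for Arrdc4. Capitals mark the motifs found on either strand, which were the FOXO site GTAAACA and CCAAT in Txnip, and the E-box CACGTG and CCAAT in Arrdc4. Only the exact letters were searched, so an E-box that departs from CACGTG is left unmarked in either window.
Txnip: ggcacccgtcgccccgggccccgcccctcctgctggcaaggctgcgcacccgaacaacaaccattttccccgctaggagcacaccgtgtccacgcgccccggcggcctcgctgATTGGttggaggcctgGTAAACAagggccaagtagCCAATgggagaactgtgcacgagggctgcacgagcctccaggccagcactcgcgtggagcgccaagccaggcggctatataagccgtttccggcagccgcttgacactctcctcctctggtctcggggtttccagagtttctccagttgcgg
Arrdc4: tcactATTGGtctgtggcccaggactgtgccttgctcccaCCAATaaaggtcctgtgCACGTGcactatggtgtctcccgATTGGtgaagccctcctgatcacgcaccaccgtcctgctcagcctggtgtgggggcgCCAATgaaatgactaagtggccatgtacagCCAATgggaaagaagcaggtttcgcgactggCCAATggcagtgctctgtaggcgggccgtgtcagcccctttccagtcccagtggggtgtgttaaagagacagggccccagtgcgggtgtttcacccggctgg
A FOXO site of these letters stands in 2.48% of all promoters of tested genes and the E-box in 9.98%. A match describes the letters and is not a binding site.

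Of 23 FOXO targets, 8 were called higher and 1 lower (39.1% called, against 9.99% of all genes), with 17 positive and a median log2 fold change of 0.44. FOXO proteins are growth-factor restrained transcription factors of quiescence and atrophy genes. Fbxo32, the ubiquitin ligase atrogin-1, rose to 61.4 and 15.0 CPM in treated clones 12 and 14, against 25.8 and 4.98 CPM in untreated ones (1.46, SE 0.26, edgeR adjusted p = 0.00174). Within each clone the treated library was the higher, although the clones differed so much in level that the arms overlapped. Gabarapl1, an autophagosome protein, was at 174 and 257 CPM against 110 and 139 CPM (0.79, adjusted p = 0.000871). Ccng2, an atypical cyclin of arrested cells, was at 52.4 and 90.7 CPM against 16.3 and 52.2 CPM (1.23), with the call lost without the untreated library of clone 12 (adjusted p = 0.0545). Foxo4 (0.78) lost its call without the same library (adjusted p = 0.0847), Tsc22d3 (0.79) and Klf4 (0.47) without any 1 of the 4 (adjusted p up to 0.21 and 0.246), and Trp53inp1 (1.37) without the treated library of clone 14 or the untreated one of clone 12 (adjusted p up to 0.457). Klf4 stood at -0.68 against the siRNA libraries. The member called lower was Klf6 (-0.73), lost without the treated library of clone 12 or the untreated one of clone 14 (adjusted p up to 0.0763).

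TFEB is the master factor of lysosome genes and is itself exported by XPO1. Of 32 TFEB and lysosome genes, 11 were called higher and none lower (34.4% called, against 9.99% of all genes), with 27 positive and a median of 0.36. Atp6v1h, a subunit of the proton pump, was at 78.1 and 127 CPM in treated clones 12 and 14, against 48.2 and 71.0 CPM in untreated ones (0.77, edgeR adjusted p = 0.000461). Map1lc3b, the autophagosome protein LC3B, rose by 0.78 and Flcn, the folliculin gene that restrains TFEB, rose by 0.83. Gpnmb, a lysosomal glycoprotein, was at 22.0 and 174 CPM against 8.97 and 84.3 CPM (1.14), a call lost without the untreated library of clone 12 (adjusted p = 0.0729). The lysosomal enzymes Ctsa (0.45), Gla (0.43) and Tpp1 (0.43) and the autophagy gene Wipi1 (0.48) were also called. Ctsa, Gla and Tpp1 lost the call without any 1 of the 4 libraries and Wipi1 without any but the untreated one of clone 14 (adjusted p up to 0.338). Atp6v0d2 lay at or under 0.720 CPM in all 4 libraries and is left without a fold. Against the siRNA libraries as control, an alternative named above, the list median was 0.04 and Atp6v1h was not called (0.15, adjusted p = 0.225). Its siRNA libraries reached 94.9 CPM in clone 12 and 128 CPM in clone 14.

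**Figure D3:**
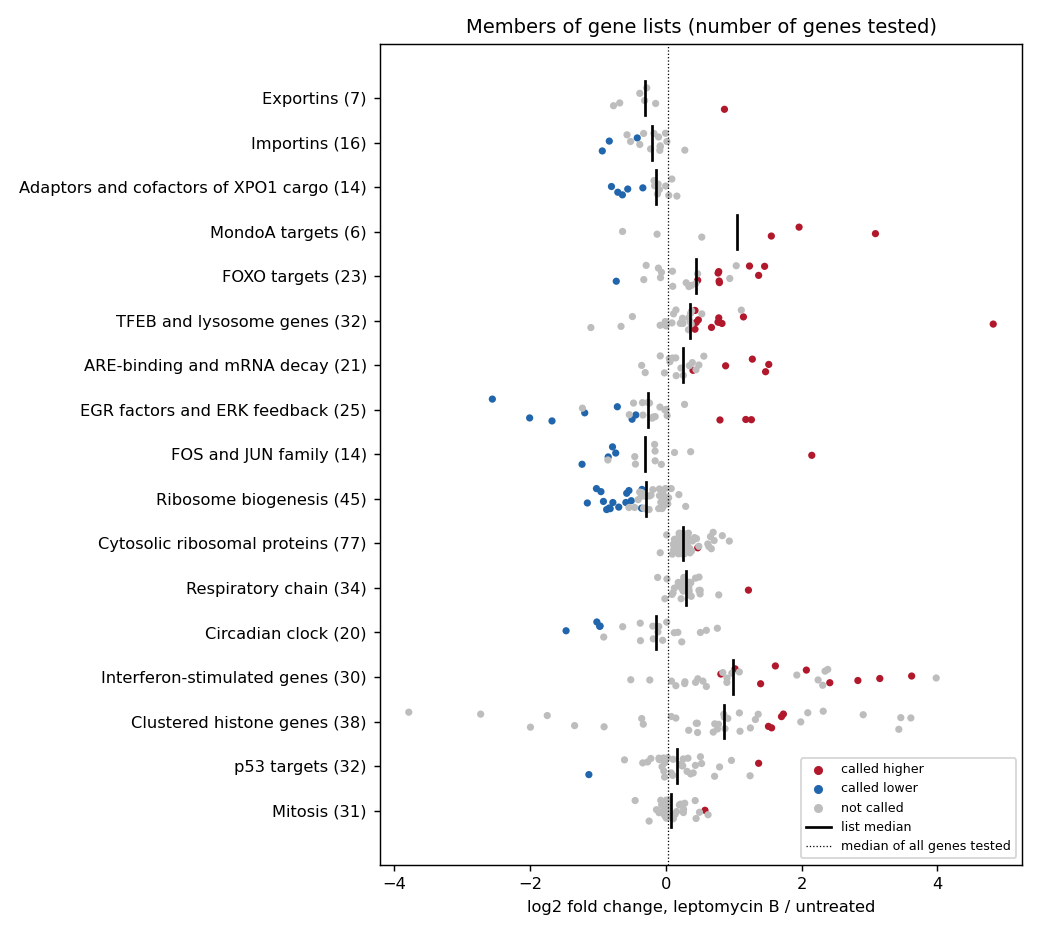
Log2 fold change of leptomycin B over untreated (x axis) for the members of 17 gene lists, each point a gene coloured by its call, with the list median as a bar and the median of all genes tested as a dotted line. Points of the FOXO, lysosome and MondoA lists called in the test lie to the right but for 1, and those of the ribosome biogenesis list to the left.

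Of 45 genes whose products make and mature ribosomal RNA, 15 were called lower and none higher (33.3% called, against 9.99% of all genes). In that list 37 were negative and the median was -0.30. Ddx21, a nucleolar helicase, was at 317 and 234 CPM in treated clones 12 and 14, against 794 and 460 CPM in untreated ones (log2 fold change -1.15, SE 0.14, edgeR adjusted p = 7.61e-05). Each treated library lay under every other library of its clone, the siRNA libraries reaching down to 540 and 329 CPM. Nop2, a ribosomal RNA methyltransferase, was at 151 and 184 CPM against 301 and 287 CPM (-0.82, adjusted p = 0.000316), and Rrp1b and Rrs1, assembly factors of the large subunit, fell by 1.02 and 0.78. These 3 also held without the block. Rrp12, which accompanies pre-ribosomal particles out of the nucleus, fell by 0.95, and Wdr43, Utp18 and Wdr75, components of the small-subunit processome, fell by 0.87, 0.83 and 0.57. Thus 8 of the 15 calls held in every fit that left out 1 library. The other 7 were Heatr1 (-0.92), Polr1b (-0.69), Nolc1 (-0.59), Tsr1 (-0.54), Gnl3 (-0.51), Ubtf (-0.36) and Wdr12 (-0.35). Of them Ubtf and Wdr12 lost their calls without any 1 of the 4 (adjusted p up to 0.237 and 0.276), Ubtf standing at 0.089 against the siRNA libraries, and Heatr1 only without the treated library of clone 12 (adjusted p = 0.0527). Nolc1 lost its call without the treated library of clone 14 or the untreated one of clone 12, and Polr1b, Tsr1 and Gnl3 without either library of clone 12, Gnl3 also without the untreated one of clone 14 (adjusted p up to 0.189).

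Of 77 genes of the ribosome's own proteins, 76 had a positive log2 fold change and the median was 0.25, but 1 was called, Rps10 (0.47, edgeR adjusted p = 0.0496), lost without any 1 of the 4 libraries (adjusted p up to 0.339). Of 34 nuclear genes of the respiratory chain, 32 were positive, the median was 0.30 and 1 was called, Cox5b, at 65.9 and 151 CPM in treated clones 12 and 14, against 48.2 and 40.0 CPM in untreated ones. Its call was lost without the treated library of clone 14 or either untreated library (adjusted p up to 0.333), and with the 4 libraries fitted alone (adjusted p = 0.427). Counts of called genes in both lists, 1.30% and 2.94%, lay below the 9.99% of all genes. Against the siRNA libraries the medians were -0.12 and -0.14, so the direction of these small shifts turned with the control.

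The response also varied with gene length. Among genes of at least 1 CPM split by genomic span into 5 bins of about equal number, 8.50% of the shortest bin (median span 4.42 kb) were called higher and 4.49% lower. In the longest bin (median 121 kb) 1.26% were called higher and 8.80% lower. The median log2 fold change by bin, short to long, was 0.19, 0.09, 0.02, -0.07 and -0.14. It ran in the same order in each clone, between 0.19 and -0.20 in clone 12 and between 0.16 and -0.09 in clone 14. Spearman's rho between span and log2 fold change was -0.278 across genes, and -0.352 with the length of the longest annotated transcript. Genes called higher had a median span of 13.1 kb and genes called lower one of 32.8 kb, against 23.9 kb for all. Transcript length and span go together, and genes short in both had a median of 0.22 while genes long in both had one of -0.17. The part of length in the result of any list was not tested.

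**Figure D4:**
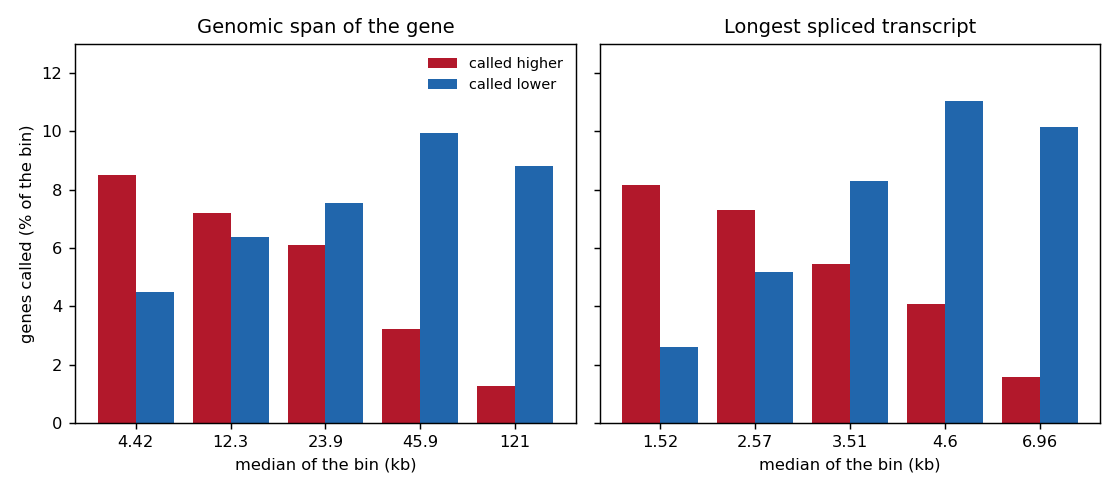
Share of genes called higher or lower (y axis, percent of the bin) by 5 bins of genomic span and of longest transcript length (x axis, median of the bin in kb), for genes at a mean of at least 1 CPM. Calls to higher levels decline from 8.50% in the shortest to 1.26% in the longest bin of span.

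Egr3, an early growth response factor, had the largest fall among named genes, at 3.01 and 5.17 CPM in treated clones 12 and 14, against 22.1 and 25.0 CPM in untreated ones (log2 fold change -2.55, SE 0.28, edgeR adjusted p = 3.17e-05). Egr1, its better known relative, was at 27.7 and 36.7 CPM against 49.2 and 102 CPM (-1.19, adjusted p = 0.00106). Of 25 EGR factors and ERK pathway genes, 7 were called lower and 3 higher (40.0% called, against 9.99% of all genes). Dusp5, a nuclear phosphatase that acts on ERK, fell by 1.67. Areg, the EGF-receptor ligand amphiregulin, was at 4.16 and 18.0 CPM against 15.3 and 76.6 CPM (-2.00, SE 0.18, adjusted p = 4.98e-06). The fall was -1.86 in clone 12 and -2.08 in clone 14, although clone 14 expressed it at the higher level, so that the arms overlapped across clones. Hbegf, a second ligand of that receptor, was called at -0.71, lost without either library of clone 12 (adjusted p up to 0.119), and the ERK brakes Spry2 (-0.49) and Dusp7 (-0.44) were called. Spry2 lost the call without the treated library of clone 12 or the untreated one of clone 14, and Dusp7 without any 1 of the 4 (adjusted p up to 0.314). The member that rose in all fits was Etv1, an ETS factor, at 69.5 and 67.7 CPM against 32.3 and 25.5 CPM (1.26, adjusted p = 0.00107). Ier3 (0.80) and the phosphatase Dusp1 (1.18) were called higher, Ier3 losing the call without any but the untreated library of clone 12 and Dusp1 without any but the treated one of clone 14 (adjusted p up to 0.27 and 0.552), and against the siRNA libraries they stood at -0.31 and -0.16.

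The promoter of Areg is printed as that of a ligand that fell 4.01-fold and holds a cyclic AMP response element. It is chr5:91139349-91139648 of GRCm38.p6 on the plus strand, from RefSeq, with the letters TGACGTC or their complement in capitals.
Areg: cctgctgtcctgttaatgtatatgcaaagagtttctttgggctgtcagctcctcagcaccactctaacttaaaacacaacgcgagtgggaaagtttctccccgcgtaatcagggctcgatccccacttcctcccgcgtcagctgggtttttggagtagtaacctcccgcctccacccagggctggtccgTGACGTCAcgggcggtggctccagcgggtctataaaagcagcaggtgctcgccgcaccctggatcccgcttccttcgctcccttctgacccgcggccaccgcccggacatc
That element stands in 5.38% of the promoters of all tested genes, in 4.73% of those called higher and in 5.69% of those called lower.

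The FOS and JUN genes divided. Of 14 genes, Fos rose and 4 were called lower, against 4.29% and 5.70% of all genes, with a median of -0.30. Fos was at 5.52 and 5.06 CPM in treated clones 12 and 14, against 1.02 and 1.51 CPM in untreated ones (2.15, SE 0.32, edgeR adjusted p = 0.000345). Its siRNA libraries reached 1.98 CPM in clone 12 and 5.18 CPM in clone 14, where they thus passed the treated level. Fosl2, which encodes FRA2, was at 124 and 41.4 CPM against 214 and 71.1 CPM (-0.78, adjusted p = 0.00182). Fosl1, the FRA1 gene that RAS signalling sustains, was at 43.7 and 50.2 CPM against 138 and 85.7 CPM (-1.23), a call lost without either library of clone 12 (adjusted p = 0.0526 and 0.0665). Jun (-0.85) lost its call without the treated library of clone 12 (adjusted p = 0.0542), and Jdp2 (-0.74) without any 1 of the 4 (adjusted p up to 0.224). Trp53 was called at 0.34 and lost that call without any 1 of the 4 (adjusted p up to 0.331). Any reads of the DNP53 construct are not separated from those of the cell's own gene in these counts. Mkl1, the actin-regulated cofactor MRTF-A of serum response factor, fell by 1.05 and was the single call among 25 SRF and MRTF targets and partners (median 0.22). Of 16 YAP and TEAD targets, Ankrd1 (-1.17) and Ajuba (-0.43) were called lower, with 13 negative. Ankrd1 lost its call without the treated library of clone 14 or the untreated one of clone 12 and Ajuba without any 1 of the 4 (adjusted p up to 0.0821 and 0.236).

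Of 28 NF-kB targets, 3 were called lower and 3 higher (median 0.15), against 5.70% and 4.29% of all genes. Tnfaip3, the A20 brake on NF-kB signalling, was at 2.21 and 2.89 CPM in treated clones 12 and 14, against 6.71 and 12.0 CPM in untreated ones (log2 fold change -1.84, SE 0.17, edgeR adjusted p = 4.98e-06). The chemokines Ccl7 (1.76), Ccl2 (1.30) and Cxcl1 (1.44) were called higher, and Traf1 (-1.61) and the cytokine Lif (-0.83) lower. Each of these 5 lost its call without the treated library of clone 12 or the untreated one of clone 14, Cxcl1 and Lif also without the treated one of clone 14 and Lif without the untreated one of clone 12 (adjusted p up to 0.31). Against the siRNA libraries Ccl7 and Ccl2 reversed, to -0.60 and -0.37.

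In the integrated stress response, 4 of 29 genes were called higher and 1 lower (17.2% called, against 9.99% of all genes), with a median of -0.03. Ppp1r15a (GADD34), the phosphatase subunit that ends translational arrest, was at 34.7 and 38.4 CPM in treated clones 12 and 14, against 13.1 and 16.0 CPM in untreated ones (1.34, SE 0.15, edgeR adjusted p = 3.17e-05). It exceeded all siRNA libraries, which reached 28.3 and 32.1 CPM. Ddit3 (CHOP) was at 36.9 and 20.9 CPM against 19.4 and 13.1 CPM (0.80, adjusted p = 0.00107), but its siRNA libraries reached 46.9 and 22.7 CPM, and against them it was not called (-0.04, adjusted p = 0.813). Atf5 (0.72), Nupr1 (0.85) and Cebpg (-0.53) were called. Nupr1 lost the call without any 1 of the 4 libraries, Atf5 without any but the treated one of clone 12 and Cebpg without either of clone 14 (adjusted p up to 0.202), and Nupr1 stood at -0.58 against the siRNA libraries. Of 22 genes of the unfolded protein response, 1 was called, Dnajb9, a chaperone of the endoplasmic reticulum, at 31.8 and 21.1 CPM against 14.3 and 10.2 CPM (1.10), and against the siRNA libraries it was not called (0.04, adjusted p = 0.872). Of 24 heat shock genes, 2 were called, the near-identical Hspa1b (1.91) and Hspa1a (1.53), between which reads may be divided uncertainly. Hspa1b was at 13.3 and 14.7 CPM against 3.35 and 4.18 CPM, with siRNA libraries up to 12.2 and 26.9 CPM, and Hspa1a lost its call without any 1 of the 4 libraries (adjusted p up to 0.32) and stood at -0.28 against the siRNA libraries. Of 27 NRF2 targets, 4 were called higher and 1 lower, against 4.29% and 5.70% of all genes. Gsta4, a glutathione transferase, rose by 1.06, with a value of -0.22 against the siRNA libraries. Gstm1 (0.83), Cbr1 (0.96), Ephx1 (0.65) and Srxn1 (-0.49) were called. Gstm1 lost the call without the untreated library of clone 12 (adjusted p = 0.0659), Cbr1 without either library of clone 14 (adjusted p up to 0.136), and Ephx1 and Srxn1 without any 1 of the 4 (adjusted p up to 0.237). Ephx1 stood at -0.59 against the siRNA libraries.

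Of 30 interferon-stimulated genes tested, 9 were called higher and none lower (30.0% called, against 9.99% of all genes). On log2 CPM with a prior count of 2 the median log2 fold change was 1.05 in clone 12 and 0.18 in clone 14, a difference that was not tested for the list. In clone 14, 6 of the 30 had no counts in either library and so stand at 0 there. Over the 14 members with a mean of at least 1 CPM the medians were 0.83 in clone 12 and 0.22 in clone 14. Irf1, an interferon-induced transcription factor, was at 23.8 and 16.7 CPM in treated clones 12 and 14, against 9.59 and 9.95 CPM in untreated ones (1.02, edgeR adjusted p = 0.000789). Eif2ak2, the double-stranded RNA kinase PKR, was at 135 and 120 CPM against 68.8 and 76.3 CPM (0.81, adjusted p = 0.000839). These 2 rose in both clones and above every siRNA library. Ifit1, an RNA-binding antiviral protein, was at 7.30 CPM in treated clone 12 against 1.45 CPM in the untreated library, and at 0.0605 against 0.0516 CPM in clone 14. Isg15, a ubiquitin-like modifier, was at 7.94 against 2.47 CPM in clone 12 and at 0.0453 against 0.0344 CPM in clone 14. Oasl1 had no counts in either library of clone 14, and was at 3.44 against 0.357 CPM in clone 12.

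Ifit1, Isg15, Oasl1, Irf7, Usp18, Ddx58 (the RNA sensor RIG-I) and Oasl2 lost their calls without either library of clone 12, Oasl2 also without the untreated one of clone 14 (edgeR adjusted p up to 1). The siRNA libraries of clone 12 also held these genes above its untreated library in places, reaching 7.34 CPM for Ifit1, 5.99 CPM for Isg15 and 7.73 CPM for Ddx58, and Ifit1 was not called against them (0.22, adjusted p = 0.553). No gene of the list was called for a difference between the clones, by a test that could not find such differences on simulated data. Samd9l, an interferon-inducible growth inhibitor named for its size of change, rose to 11.9 and 2.24 CPM against 1.76 and 0.275 CPM (3.03, adjusted p = 0.000281).

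**Figure D5:**
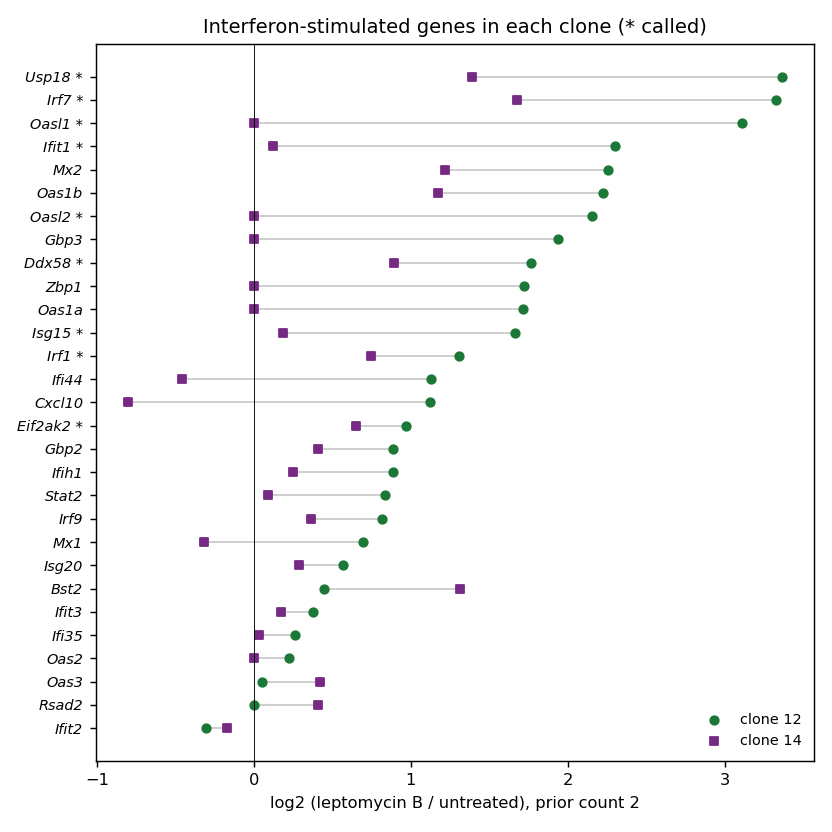
Log2 fold change of leptomycin B over untreated (x axis, log2 CPM with a prior count of 2) of interferon-stimulated genes in clones 12 (circles) and 14 (squares), ordered by clone 12, with called genes starred. The median over the 30 genes tested, not all of which are drawn, is 1.05 in clone 12 and 0.18 in clone 14.

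Of 32 p53 targets, measured in cells that carry the dominant-negative form, 1 was called higher (Trp53inp1, above) and 1 lower, with a median of 0.17. Aen, a p53-induced nuclease, was at 35.6 and 51.3 CPM in treated clones 12 and 14, against 90.0 and 97.5 CPM in untreated ones (-1.13, SE 0.13, edgeR adjusted p = 4.96e-05), and held without the block (adjusted p = 0.0239). Of 26 caspase and pro-apoptotic genes, Bmf and Casp6 were called higher and Bid lower. Bmf, a BH3-only protein, was at 1.79 and 1.63 CPM against 0.179 and 0.567 CPM (2.43). Casp6 (0.57), an executioner caspase, and Bid (-0.83), the BH3-only link from death receptors, were each called. Bmf and Bid lost the call without any but the treated library of clone 14 and Casp6 without any but the treated one of clone 12 (adjusted p up to 0.155, 0.212 and 0.101 for Bmf, Bid and Casp6). None of the 9 anti-apoptotic genes tested was called by edgeR (median -0.19), and by name Bcl2 was at -0.45 (adjusted p = 0.108), with 0.73 against the siRNA libraries.

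Slc16a6, a monocarboxylate transporter family member, was at 42.2 and 29.3 CPM in treated clones 12 and 14, against 6.61 and 4.64 CPM in untreated ones (log2 fold change 2.66, SE 0.24, edgeR adjusted p = 4.98e-06), with 2.66 in clone 12 and 2.65 in clone 14, and called without the block (adjusted p = 0.0131). Its siRNA libraries did not exceed 2.57 CPM. Rgs9bp, a membrane anchor of a G-protein regulator, had the largest change among called genes of at least 1 CPM, with 357 and 198 counts against 31 and 7 counts (4.32, SE 0.53). Fam26e was at 16.6 and 17.6 CPM against 3.15 and 2.92 CPM (2.53), and Dnaic2, a ciliary dynein chain, at 2.96 and 3.23 CPM against 0.488 and 0.636 CPM (2.46). Further genes of the 12 largest rises were 2900060B14Rik (2.90), Ypel4 (2.73), the small Cajal body RNA Scarna17 (2.56), Magel2 (2.45) and Ager (2.37). The call of 2900060B14Rik was lost without the untreated library of clone 14 (adjusted p = 0.0533), that of Ager without either library of clone 12 (adjusted p up to 0.15), those of Ypel4 and Magel2 without any but the treated library of clone 14 and that of Scarna17 without any but the treated one of clone 12 (adjusted p up to 0.292).

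On the falling side, Mfsd2a, a lysolipid transporter, was at 1.28 and 2.04 CPM in treated clones 12 and 14, against 6.50 and 11.6 CPM in untreated ones (log2 fold change -2.46, edgeR adjusted p = 4.98e-06). Fst, follistatin, which binds activin, was at 64.4 and 67.5 CPM against 218 and 246 CPM (a 3.49-fold fall, adjusted p = 0.000638), below all siRNA libraries. Hpdl (-1.98) and the lipid kinase Pik3c2b (-1.88) also fell. Has2, a hyaluronan synthase, was at 12.2 CPM against 56.4 CPM in clone 12 and at 0.0604 against 0.326 CPM in clone 14, and lost its call without the treated library of clone 12 (adjusted p = 0.182). A930013F10Rik (-1.87) lost its call without the same library (adjusted p = 0.0518), Fat2 (-1.83) without the untreated library of clone 14 (adjusted p = 0.113) and Mir1949 (-1.83) without any but the treated library of clone 14 (adjusted p up to 0.273).

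HEXIM1 and the 7SK capping enzyme MEPCE hold the elongation kinase CDK9 inactive. Hexim1 was at 120 and 93.4 CPM in treated clones 12 and 14, against 29.4 and 30.8 CPM in untreated ones (1.84, SE 0.17, edgeR adjusted p = 6.52e-06), and its siRNA libraries did not exceed 49.3 CPM. Mepce was at 91.0 and 92.0 CPM against 65.9 and 56.3 CPM (0.59, adjusted p = 0.00129). Both held without the block (adjusted p = 0.0349 and 0.0283). Of 20 polymerase II and CDK9 genes, 5 were called higher and none lower (median 0.01), against 4.29% and 5.70% of all genes. The other 3 were Brd2 (0.44), Polr2a (0.57) and Nelfb (0.37), and these lost their calls. Brd2 lost it without the treated library of clone 12 or the untreated one of clone 14, and the other 2 without any 1 of the 4. Of 31 splicing factors, Srsf5 was called higher (0.56) and Srsf10 (-0.61), Hnrnpd (-0.39) and Hnrnpu (-0.36) lower, with Srsf10 lost only without the treated library of clone 12 (adjusted p = 0.0735), Srsf5 without any but that library (adjusted p up to 0.107) and the other 2 without any 1 of the 4 (adjusted p up to 0.215).

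The list of AU-rich element binding and mRNA decay held 21 genes (median 0.26). Of these 5 were called higher and none lower, against 4.29% and 5.70% of all genes. Tob1, an antiproliferative protein that recruits the deadenylase, was at 107 and 151 CPM in treated clones 12 and 14, against 30.3 and 66.8 CPM in untreated ones (1.52, edgeR adjusted p = 0.000194). Its relative Tob2 was at 102 and 124 CPM against 59.5 and 62.8 CPM (0.88, adjusted p = 8.31e-05), and in both genes the arms did not overlap. Zfp36l1, which targets AU-rich messages for decay, was at 79.2 and 35.0 CPM against 37.7 and 10.3 CPM (1.47, adjusted p = 0.000344). Pnrc1 (1.28) lost its call without either library of clone 12 (adjusted p = 0.102 and 0.104) and Cnot8 (0.40) without any 1 of the 4 (adjusted p up to 0.178).

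In a chosen list of 24 long noncoding RNAs, 6 were called lower and none higher. Over all 725 genes tested that are annotated as long noncoding RNAs, 19 were called lower and 13 higher. That is 4.41% called, against 9.99% of all genes, with a median of 0.08. Neat1, the scaffold of paraspeckles, was at 346 and 218 CPM in treated clones 12 and 14, against 780 and 1358 CPM in untreated ones (log2 fold change -1.99, SE 0.31, edgeR adjusted p = 0.000568). The fall was larger in clone 14 (-2.64) than in clone 12 (-1.17), a difference that was not called (adjusted p = 1). Its siRNA libraries ranged from 332 to 1377 CPM in clone 12, so the treated library was not the lowest there, and with the 4 libraries fitted alone the call was lost (adjusted p = 0.323). Snhg5, a host of small nucleolar RNAs, was at 47.3 and 39.9 CPM against 85.7 and 67.6 CPM (-0.80, adjusted p = 0.000405). Snhg4 (-0.60), Mir22hg (-0.82), Pvt1 (-0.68) and Gas5 (-0.44) were also called. Snhg4 lost the call without the treated library of clone 12 or the untreated one of clone 14, Mir22hg without any but the treated library of clone 12, and Pvt1 and Gas5 without any but the treated one of clone 14 (adjusted p up to 0.374).

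The clock genes gave 4 calls of 20, all lower (median -0.15), against 5.70% of all genes called lower. Cry1, the repressor cryptochrome, was at 8.02 and 7.01 CPM in treated clones 12 and 14, against 20.9 and 20.5 CPM in untreated ones (-1.47, SE 0.16, edgeR adjusted p = 2.79e-05), below every siRNA library of its clone. Arntl, the activator BMAL1, was at 6.69 and 5.24 CPM against 13.2 and 10.8 CPM (-1.01, adjusted p = 0.000283). Both held without the block (adjusted p = 0.0035 and 0.0245). Nfil3 (-0.97) lost its call without either library of clone 14 and Ciart (-0.97) without the treated library of clone 12 or the untreated one of clone 14 (adjusted p up to 0.133 and 0.371).

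Of 21 TGF-beta and SMAD targets, 3 were called higher and 1 lower (median -0.05), against 4.29% and 5.70% of all genes. Id2, an inhibitor of helix-loop-helix factors, was at 106 and 33.0 CPM in treated clones 12 and 14, against 46.6 and 11.2 CPM in untreated ones (1.37, edgeR adjusted p = 0.00017). Tgfb3 (0.80) lost its call without the untreated library of clone 12 (adjusted p = 0.0578), Id3 (1.12) without either library of clone 14 (adjusted p up to 0.202), and Tgfbr2 (-0.60) without the treated one of clone 12 or the untreated one of clone 14 (adjusted p up to 0.398). Hes1, the Notch-driven repressor, fell to 4.16 and 6.06 CPM against 8.26 and 16.2 CPM (-1.22, adjusted p = 0.00182), and Jag1 (-0.63), a Notch ligand, was the other call among 14 Notch and hedgehog genes, lost without any but the treated library of clone 12 (adjusted p up to 0.233). Of 14 WNT targets, Znrf3 (-1.05) and Tcf7 (-0.71) were called lower. Znrf3 lost the call without the treated library of clone 12 (adjusted p = 0.0574) and Tcf7 without any but the untreated one of clone 14 (adjusted p up to 0.665).

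In cholesterol synthesis and uptake, 3 of 24 genes were called lower and 1 higher, against 5.70% and 4.29% of all genes. Sqle, squalene epoxidase, was at 113 and 103 CPM in treated clones 12 and 14, against 211 and 185 CPM in untreated ones (-0.87, edgeR adjusted p = 0.00057). Msmo1 (-0.47) and Insig1 (0.49) lost their calls without any 1 of the 4 libraries (adjusted p up to 0.231 and 0.221). In glycolysis and the hypoxia response, 3 of 29 were called higher and 1 lower, or 13.8%, near the 9.99% of all genes. Hk2, the inducible hexokinase, was at 23.8 and 41.0 CPM against 118 and 95.9 CPM (-1.63, adjusted p = 0.00272), with siRNA libraries of clone 14 down to 36.6 CPM and no call when the 4 libraries were fitted alone (adjusted p = 0.11). Ndrg1 rose by 0.96 and stood at -0.08 against the siRNA libraries, and Ankrd37 (1.12) and the MYC antagonist Mxi1 (0.70) were also called. Ankrd37 lost the call without any but the treated library of clone 14 (adjusted p up to 0.217) and Mxi1 without the treated one of clone 12 or the untreated one of clone 14 (adjusted p up to 0.080).

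Of 33 matrix genes, 4 were called higher and none lower (median 0.12), against 4.29% and 5.70% of all genes. Col3a1, a chain of type III collagen, was at 496 and 189 CPM in treated clones 12 and 14, against 238 and 93.1 CPM in untreated ones (1.04, edgeR adjusted p = 0.000839). Its siRNA libraries reached 490 and 241 CPM, and against them it was not called (0.17, adjusted p = 0.333). Dcn, among the other calls, had 2 counts in treated clone 14 and 0 in untreated clone 14. The fold change of Dcn thus comes from clone 12, at 7.46 CPM treated against 3.84 CPM untreated. Timp3 (0.79), Dcn (0.99) and Sparc (0.46) lost their calls without any 1 of the 4 libraries (adjusted p up to 0.654), and against the siRNA libraries Timp3 stood at -0.13 and Sparc at -0.30. Of 14 tubulin and microtubule genes, Tubb2a rose to 41.7 and 24.7 CPM against 21.7 and 11.8 CPM (1.00), within the range of the siRNA libraries, and Tuba1a (0.51) lost its call without any 1 of the 4 (adjusted p up to 0.239).

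Of 11 genes of MYC and its partners, Mxd1 (1.00) and Mxi1 were called higher and Mnt (-0.54) lower, and Mxd1 lost its call only without the treated library of clone 12 (edgeR adjusted p = 0.0694) while Mnt lost it without any but the treated one of clone 14 (adjusted p up to 0.192). Of 21 KLF and other growth-arrest factors, 4 were called higher and 2 lower, against 4.29% and 5.70% of all genes. Those higher were Tob1, Klf11 (0.89), Tsc22d3 and Klf4, and those lower were Klf6 and Klf13 (-0.62). Among these Tob1 alone kept its call in every fit that left out 1 library, Klf11 losing it without any 1 of the 4 (adjusted p up to 0.15) and Klf13 without any but the treated one of clone 14 (adjusted p up to 0.332). Of 38 clustered histone genes tested, 4 were called higher and none lower, against 4.29% and 5.70% of all genes. A mean of 1 CPM was reached by 5 of the 38. Most histone messages lack the poly(A) tail on which these libraries were selected. Hist1h1c, a linker histone with a polyadenylated form, was at 4.16 and 12.0 CPM in treated clones 12 and 14, against 0.926 and 4.81 CPM in untreated ones (1.71, adjusted p = 0.000418). Hist1h2be, Hist1h2bc and Hist1h4i (1.73, 1.51 and 1.56) were also called. Hist1h2be lost the call without either library of clone 12 (adjusted p up to 0.145), Hist1h2bc without any but the treated one of clone 12 (adjusted p up to 0.138, and -0.37 against the siRNA libraries) and Hist1h4i without the treated one of clone 12 or the untreated one of clone 14 (adjusted p up to 0.263), and reads of such near-identical copies are uncertain.

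Across all promoters, the share holding each motif was compared as a description. The E2F site GCGGGAA stood in 5.29% of the promoters of genes called higher, 10.2% of those called lower and 8.11% of all 11794. The FOXO site GTAAACA stood in 4.16% of the promoters of genes called higher, 1.46% of those called lower and 2.48% of all. The AP-1 site TGANTCA stood in 5.29%, 4.37% and 5.59%, the E-box in 11.9%, 13.8% and 9.98%, and CCAAT in 42.9%, 37.0% and 38.9%, in the same order. The median GC content of these windows was 59.0% for genes called higher, 64.8% for genes called lower and 60.3% for all. Every motif was read on both strands.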

How the data were processed

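Poly(A)-selected RNA from transformed MEFs was sequenced, per the labels' protocols, with a stranded Illumina kit on a HiSeq 2500 as single reads of 100 bases. The submitters' processing notes name mm10, HTSeq 0.6.1p1, TopHat2 2.0.13, Bowtie2 2.2.3, CASAVA 1.8.2 and FastQC. Which annotation and strand setting were used is not given in the labels, so genes that overlap or lie antisense to each other are uncertain. The authors deposited raw counts per gene, 24079 rows in 28 libraries. Of these rows 22 have no gene ID (at most 0.0137% of a library), and they were kept in the counts given to the filter.

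edgeR 4.0.16 in R 4.3.3 was run on those counts, with filterByExpr over 15 groups (15099 genes kept) and TMM scaling. A quasi-likelihood fit with robust estimation over all 28 libraries had clone as a block (17 coefficients, 11 residual degrees of freedom, biological coefficient of variation 14.6%). In that fit the lines with mCherry constructs were grouped by construct and blocked by matched pair. The contrast was leptomycin B minus untreated, with the standard error taken as the log2 fold change over the square root of F. CPM are on TMM-adjusted library sizes, and log2 fold changes per clone use a prior count of 2. The shallowest of the 4 libraries held 38207601 counts. Nothing states that libraries of an arm came from separate experiments beyond the clones, so p-values measure the spread between these libraries.

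The pairing comes from the clone named in the titles, and the deviations of same-clone libraries from their group means correlated at 0.934. Replicates differed by far more than sampling noise (chi-square per degree of freedom 309.7 between the treated libraries and 333.3 between the untreated ones, the lowest of 378 pairs in the series being 13.8). On simulated data with 14972 genes tested, the test recovered 56 of 100 genes changed by 1 and 80 of 100 changed by 2 on the log2 scale, with 5 false among 141 calls. The test of the clone difference, in a fit with 14975 genes, recovered 0 of 100 at either size.

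Genes named are Ccnd1 and Xpo1, 12 genes at each end of the log2 fold change among calls whose clones share a sign and whose mean reaches 1 CPM, up to 4 genes of smallest p per list, and the 6 of smallest p for the clone difference. Further called members of lists were named after their values were seen, as was Cdkn1a. Some genes that enter the counts of lists are not reported here by name. The 44 gene lists and the comparison were chosen with earlier results of these data known, and no set test was run. Gene spans are those of GRCm38.p6 (15074 of 15099 genes matched) and transcript lengths those of GENCODE M21. RefSeq promoters, 250 bases before to 50 after the start, matched 11794 genes.

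Alternatives were other size factors, filters, a non-robust fit, no block, fewer libraries, each of the 4 libraries left out, DESeq2 1.42.0 and, chosen after seeing the data, the 6 siRNA groups of the tagged clones as control.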

Additional observations from a re-analysis of the deposited data

Results flagged for a closer look

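Among the 6 genes of at least 1 CPM with the smallest unadjusted p for the clone difference, 4 moved in opposite directions in the clones. The clone-difference test called none of these 4 (edgeR adjusted p = 1 for each). The values are clone 14 minus clone 12, on the log2 scale. Sh2d5, an adaptor protein with an SH2 domain, was at 4.35 and 2.84 CPM in treated clones 12 and 14, against 7.18 and 0.842 CPM in untreated ones, a difference between clones of 2.52 (SE 0.57). Angptl2, a secreted angiopoietin-like protein, was at 109 and 71.3 CPM against 135 and 39.8 CPM, a difference of 1.15 (SE 0.26). Nrarp, a Notch-induced inhibitor of Notch signalling, was at 1.60 and 27.2 CPM against 0.374 and 31.3 CPM, a difference of -2.34 (SE 0.62). Cxxc5, a zinc finger protein, was at 3.39 and 0.801 CPM against 5.33 and 0.326 CPM, a difference of 2.18 (SE 0.59). These genes were picked by that unadjusted p, so their direction is a description.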

How the results depend on the processing

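The count of called genes lay within 1.5 times the 1508 with relative log expression or upper-quartile size factors, without the filter or with one at 1 CPM, without robust fitting, over the 16 tagged libraries, and without 5 libraries that stood apart in genes detected or in the share of Rn45s. Upper-quartile factors gave 811 higher and 739 lower. Without the replicate block, 74 genes were called, 18 higher and 56 lower. With the 4 libraries alone the counts were 4494, 2233 higher and 2261 lower, and DESeq2 called 2263, of which 1037 were higher. With each library left out, the counts ranged from 560 to 1088, from 187 to 404 higher and from 373 to 684 lower. The clone difference gave 0 calls under each alternative run. With the siRNA groups as control, chosen after seeing the data, 4520 genes were called, 2624 higher and 1896 lower. Against that control these log2 values changed sign: Ccnd1 2.42, Nup210 0.041, Rbl1 0.25, Bcl2 0.73, Gsta4 -0.22, Ephx1 -0.59, Ccl7 -0.60, Ccl2 -0.37, Ddit3 -0.042, Hspa1a -0.28, Ndrg1 -0.083, Timp3 -0.13, Sparc -0.30, Hist1h2bc -0.37, Ier3 -0.31, Dusp1 -0.16, Klf4 -0.68, Nupr1 -0.58 and Ubtf 0.089. Some of the siRNAs target the tag or cyclin D1, and all these cells were transfected, so that control differs from the untreated cells in more than the drug. Without the treated library of clone 12, Oasl1 stood at -0.53 and Oasl2 at -0.021, both with no counts in clone 14, and over the 4 fits that left out a library they reached 3.26 and 2.52. The cause of the other changes was not tested.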
